A study of Mus musculus with 15 samples.

Results

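Fibronectin and 9 matricellular proteins were followed at the RNA level in 15 mouse libraries, 3 in each of 5 groups. The genes were taken by symbol from the deposited table, and all 10 were found among its 56748 genes: *Fn1*, *Tnc*, *Tnxb*, *Thbs1*, *Thbs2*, *Postn*, *Sparc*, *Ccn1*, *Ccn2* and *Ccn4*. All mice were male C57Bl/6 of the label genotype WT. WTK are kidneys of mice given the vehicle, IgGK are kidneys of mice given folic acid (200 mg/kg, a single intraperitoneal dose) and control IgG, and LepK are kidneys of mice given folic acid and LepAb, an antibody that neutralizes leptin. The kidney mice were 10 to 12 weeks old and were euthanized on day 28. IgGL and LepL are lungs of 12-week-old mice given intratracheal bleomycin (1.5 units/kg) with IgG or LepAb and euthanized on day 14. The antibody dose was 10 mg/kg, given every other day. By the paper's methods the course ended before day 28 in the kidney mice and ran until day 14 in the lung mice. All 4 injured groups therefore received an immunoglobulin, the labels name only vehicle for WTK, and lungs without bleomycin were not analysed here, so a change with injury can be read in kidney only.

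Fibronectin is a large adhesive glycoprotein that cells assemble into fibrils through integrins, and these fibrils help to lay down collagen. Matricellular proteins are secreted into the matrix as well, but mainly modulate how cells adhere, migrate and respond to growth factors. Many of them are low in quiet adult tissue and rise during wound repair and fibrosis, when fibroblasts turn into matrix-producing myofibroblasts. Tenascin C, periostin and the CCN proteins belong to this group, whereas tenascin X is a structural protein of loose connective tissue. TGF-beta signaling through SMAD factors and stretch-sensed YAP and TAZ signaling through TEAD factors are the best-known inputs to many of these genes.

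RefSeq promoter sequences (GRCm38.p6) were at hand for 6 of the 10 genes (*Tnc*, *Postn*, *Thbs2*, *Sparc*, *Ccn1* and *Tnxb*), with 8 promoters in all, since *Tnc* and *Postn* have more than 1 start. The 250 bases before the start are printed for 5 genes, 3 that moved together in kidney (*Thbs2*, *Tnc*, *Sparc*), *Ccn1* as the CCN member and *Tnxb* as the gene that moved the other way in lung. Capitals mark matches to the letters CATTCC, which is the core that TEAD factors bind. They also mark the letters CAGACA, an element that SMAD factors bind, and the AP-1 letters TGANTCA. The last letters marked are TATAAA, those of a TATA box, at any distance from the start, and all were searched on both strands. No 2 matches overlap.
Thbs2 chr17:14694263-14694512 (minus strand): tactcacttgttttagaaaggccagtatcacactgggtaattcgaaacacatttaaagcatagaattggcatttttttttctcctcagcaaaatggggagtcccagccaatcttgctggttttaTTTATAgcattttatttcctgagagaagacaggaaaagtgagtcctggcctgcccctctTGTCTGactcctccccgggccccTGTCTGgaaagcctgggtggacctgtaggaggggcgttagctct
Tnc chr4:64046937-64047186 (minus strand): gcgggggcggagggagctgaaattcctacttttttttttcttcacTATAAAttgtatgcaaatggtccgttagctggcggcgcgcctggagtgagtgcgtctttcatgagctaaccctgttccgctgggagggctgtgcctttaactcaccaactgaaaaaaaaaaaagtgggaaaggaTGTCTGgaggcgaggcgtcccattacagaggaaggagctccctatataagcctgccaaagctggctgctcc
Sparc chr11:55420081-55420330 (minus strand): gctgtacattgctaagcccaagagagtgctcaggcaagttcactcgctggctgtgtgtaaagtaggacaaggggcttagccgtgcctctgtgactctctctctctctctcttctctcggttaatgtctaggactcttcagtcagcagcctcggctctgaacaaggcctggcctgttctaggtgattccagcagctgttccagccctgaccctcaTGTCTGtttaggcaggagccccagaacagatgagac
Ccn1 chr3:145649986-145650235 (minus strand): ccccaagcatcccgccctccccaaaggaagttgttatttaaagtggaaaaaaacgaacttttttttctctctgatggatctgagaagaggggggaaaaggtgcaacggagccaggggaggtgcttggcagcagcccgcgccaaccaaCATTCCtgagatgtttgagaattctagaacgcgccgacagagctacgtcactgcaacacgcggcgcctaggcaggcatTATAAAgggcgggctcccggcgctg
Tnxb chr17:34670285-34670534 (plus strand): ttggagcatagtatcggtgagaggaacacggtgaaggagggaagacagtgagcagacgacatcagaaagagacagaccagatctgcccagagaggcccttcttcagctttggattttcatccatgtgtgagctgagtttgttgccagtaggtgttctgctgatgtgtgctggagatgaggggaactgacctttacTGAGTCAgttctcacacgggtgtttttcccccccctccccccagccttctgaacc

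The letters differ between the promoters. The *Thbs2* sequence held the SMAD letters, read on the other strand as TGTCTG, at -67 to -62 and at -44 to -39 from the start. It held the TATA letters on that strand, TTTATA, at -126 to -121. *Tnc* held the SMAD letters at -71 to -66 and the TATA letters at -205 to -200, and *Sparc* held the SMAD letters at -36 to -31. *Ccn1* held the TEAD letters at -103 to -98 and the TATA letters at -25 to -20. *Tnxb* held the AP-1 letters at -55 to -49. Over 32841 promoters of the same length, 17.1% held the SMAD letters, 12.6% the TEAD letters, 6.75% the AP-1 letters and 12.4% the TATA letters. Of the 8 promoters of these genes, 3, 1, 1 and 5 held them. The *Tnc* promoters overlap and share their TATA match, which is counted in both. The CArG box bound by serum response factor was in 1.47% of promoters. A match is a run of letters and was not measured as a binding site.

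Total counts were 25913969 to 38924788 per library, and all 10 genes passed the filter on low counts in kidney (19593 genes tested), in lung (19617) and in the joint fit of the injured organs (21488). Levels are given as normalized CPM, read counts scaled to library size (CPM) with edgeR's TMM factors within each organ, and all differences as log2 fold changes. A gene was called when its absolute log2 fold change was over 0.5 and its adjusted p under 0.05, with edgeR's quasi-likelihood test and Benjamini-Hochberg adjustment over all genes tested. The tissue labels held, since the summed level of 8 kidney epithelial markers was 5780 to 16600 CPM in kidney and 30.6 to 164 in lung, and that of 8 lung epithelial markers was 16500 to 47500 in lung and 5.61 to 22.8 in kidney. These markers check the organ, not whether a mouse received IgG or LepAb. IgGK replicates 1 and 2 stood apart, with a summed level of 8 adrenal cortex markers of 644 and 829 CPM, against 17.4 in IgGK replicate 3 and 5.87 to 11.8 in the other libraries. Counts of called genes or median log2 fold changes in the kidney comparisons with IgGK are therefore also given without replicates 1 and 2. IgGK then has a single library, whose spread is assumed to be that of the WTK and LepK groups. In tissue RNA, fewer cells of a type and less RNA per cell cannot be told apart.

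Most of the group was higher in the kidney after folic acid and IgG. Of the 10 genes, 8 rose in IgGK against WTK, where 37.3% of all genes tested were called and 21.7% rose. The same 8 had no overlap between the 3 IgGK and the 3 WTK libraries, which was so for 62.6% of genes, 32.5% upward and 30.1% downward. The median log2 fold change of the 10 was 1.79, against 0.04 over all genes. The exceptions were *Ccn2* and *Tnxb*. The 8 genes rose in each of the 9 fits that left out 1 library. With IgGK replicate 3 as the only IgGK library, the median log2 fold change of the 10 was 1.7.

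*Fn1* (ENSMUSG00000026193, GRCm39 chromosome 1, 71624679 to 71692359) codes for fibronectin and rose most. Its level was 24.3, 23.8 and 26.8 CPM in WTK and 273, 288 and 261 in IgGK. It thus rose 11-fold, a log2 fold change of 3.46 (SE 0.15, adjusted p = 1.41e-08), from 25 ± 1.64 to 274 ± 13.7 CPM (SD, n = 3). Only 2.03% of genes had a log2 fold change as high.

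The tenascins parted. *Tnc* (ENSMUSG00000028364, chromosome 4, 63878022 to 63965252), an anti-adhesive protein made at wound edges, stood at 12.1, 6.75 and 13.2 CPM in WTK and at 85.9, 96.2 and 85.6 in IgGK. Its log2 fold change was 3.06 (SE 0.22, adjusted p = 2.82e-07). *Tnxb* (ENSMUSG00000033327, chromosome 17, 34879431 to 34938789), which codes for tenascin X, stood at 37.3, 25.4 and 36.9 in WTK and at 26.9, 34.3 and 28.4 in IgGK. The groups overlapped, and the log2 fold change of -0.15 had a 95% interval of -0.45 to 0.15 (adjusted p = 0.376). With library size alone as the scaling, the *Tnxb* value was 0.29 in the other direction (adjusted p = 0.0965). Per length, *Tnc* was below *Tnxb* in WTK (ratio of FPKM 0.461 to 0.619) and above it in IgGK (4.87 to 5.54).

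The thrombospondins, which bind CD36 and CD47 and, in the case of thrombospondin 1, release TGF-beta from its latent form, both rose but by different amounts. *Thbs2* (ENSMUSG00000023885, chromosome 17, 14885762 to 14914497) went from 5.77, 6.08 and 4.36 CPM to 39.5, 47.3 and 41.8, a log2 fold change of 2.99 (SE 0.18, adjusted p = 9.74e-08). *Thbs1* (ENSMUSG00000040152, chromosome 2, 117942357 to 117957614) went from 68.4, 65.4 and 66 to 111, 123 and 123, a log2 fold change of 0.84 (SE 0.09, adjusted p = 5.4e-06). *Thbs1* was the more abundant of the pair in both groups. The FPKM of *Thbs2* was 0.0704 of that of *Thbs1* in WTK and 0.311 of it in IgGK, and the ranges over libraries (0.0573 to 0.0807 and 0.294 to 0.332) did not overlap.

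*Sparc* and *Postn* code for collagen-binding proteins, SPARC (osteonectin) and periostin. *Sparc* (ENSMUSG00000018593, chromosome 11, 55285326 to 55314009) rose from 114, 112 and 139 CPM to 498, 560 and 428, a log2 fold change of 2.02 (SE 0.15, adjusted p = 2.99e-07). *Postn* (ENSMUSG00000027750, chromosome 3, 54268530 to 54298458) rose from 5.4, 3.44 and 8.94 to 21.5, 23.2 and 18.1, a log2 fold change of 1.81 (SE 0.27, adjusted p = 0.000103). The WTK libraries varied 2.6-fold in *Postn* but 1.24-fold in *Sparc*.

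The CCN genes, which code for cysteine-rich integrin-binding modulators, did not move as a unit. *Ccn1* (ENSMUSG00000028195, chromosome 3, 145352731 to 145355736) rose from 14, 21.1 and 21.2 CPM to 40.6, 41.5 and 47.3, a log2 fold change of 1.2 (SE 0.19, adjusted p = 0.000195). *Ccn4* (ENSMUSG00000005124, chromosome 15, 66763169 to 66795050) rose from 1.74, 4.07 and 2.89 to 8.28, 11.5 and 10.1, a log2 fold change of 1.77 (SE 0.36, adjusted p = 0.00106). *Ccn2* (ENSMUSG00000019997, chromosome 10, 24471340 to 24474581), the connective tissue growth factor gene and a much-used readout of TGF-beta and YAP activity, stood at 40.5, 50.2 and 58 in WTK and at 40.8, 57.6 and 52.9 in IgGK. These groups overlapped almost fully, and the log2 fold change of 0.02 had an interval of -0.28 to 0.33 (adjusted p = 0.901). With library size alone it was 0.47 (adjusted p = 0.0209), still under the fold threshold.

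**Figure D1:**
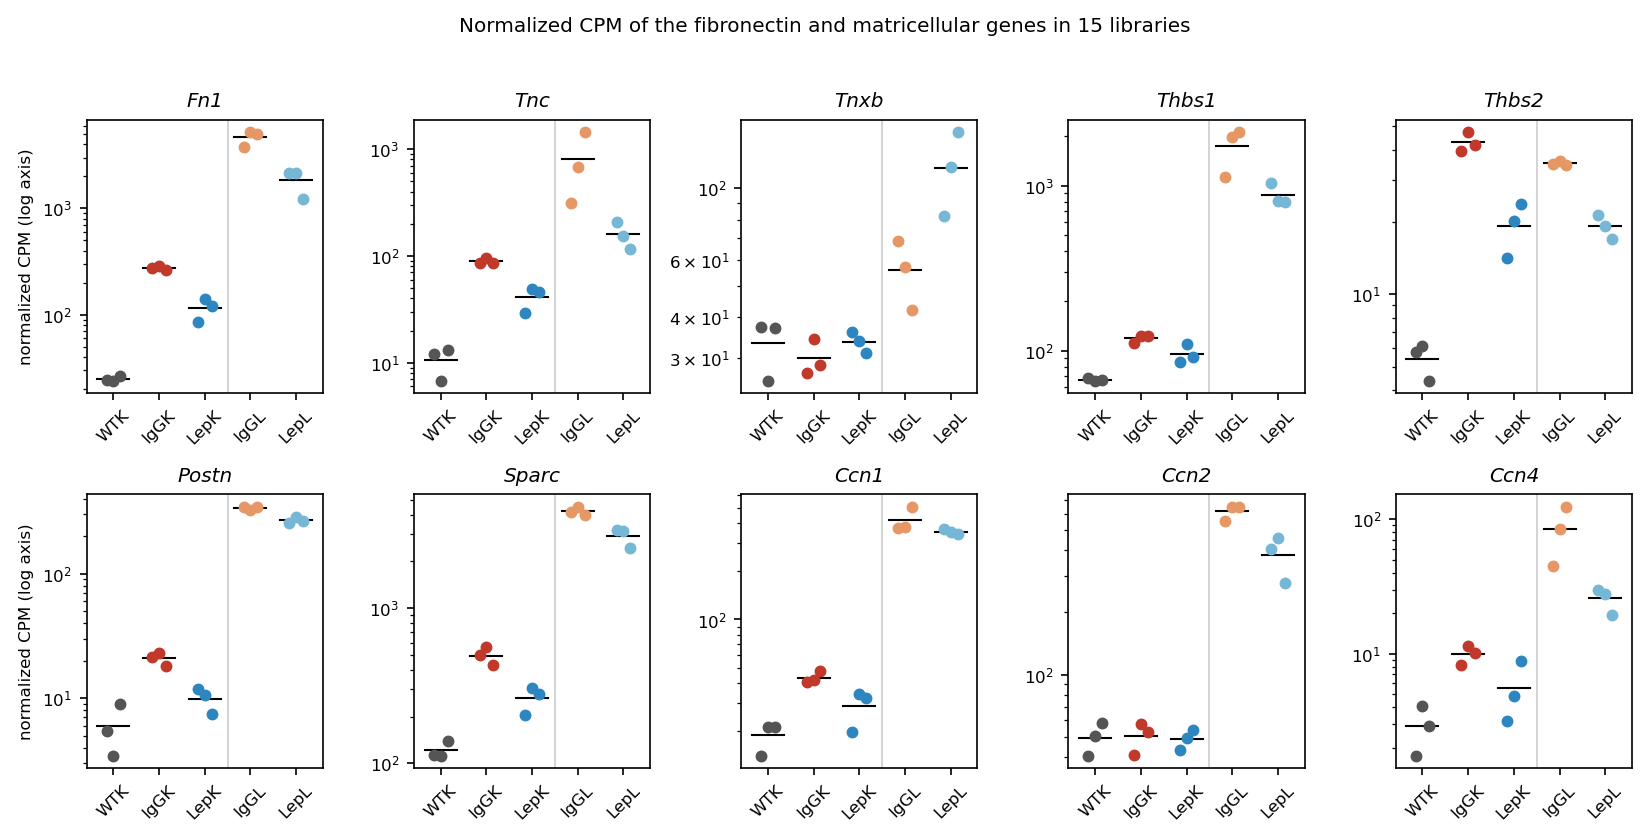
Normalized CPM (log axis) of each gene in the 15 libraries, 1 point per library, with a bar at the mean of the 3 libraries of a group. In kidney 8 genes are higher in IgGK than in WTK in every library, while *Ccn2* stays between 40.5 and 58 and *Tnxb* between 25.4 and 37.3 in these groups.

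Leptin neutralization was read in kidney by comparing LepK with IgGK. Of the 10 genes, 6 fell (*Fn1*, *Thbs2*, *Tnc*, *Postn*, *Sparc* and *Ccn1*), where 10.4% of genes tested were called and 5.99% fell. In 7 genes, these 6 and *Thbs1*, every LepK library was below every IgGK library, which was so for 19.5% of genes, with 37.4% apart in either direction. The median log2 fold change of the 10 was -0.87, against -0.01 over all genes. IgGK replicate 3, with 17.4 CPM of adrenal markers, was the lowest IgGK library in 4 of the 10 genes. These were *Fn1*, *Tnc*, *Postn* and *Sparc*, all among the 6 that fell. IgGK replicate 1 was the lowest in 6, namely *Thbs2* and *Ccn1*, which fell, and *Thbs1*, *Ccn2*, *Ccn4* and *Tnxb*, which were not called. With replicate 3 as the only IgGK library, and the spread taken from the other groups, 2 of the 10 and 3.13% of all genes were called (1.11% fell), *Fn1* (log2 fold change -1.17, adjusted p = 0.0122) and *Thbs2* (-1.11, adjusted p = 0.0292). In that fit, *Tnc* was at -1.04 (adjusted p = 0.0645), *Sparc* at -0.69 (0.0641), *Postn* at -0.85 (0.261) and *Ccn1* at -0.72 (0.169). The part of the adrenal signal in the result was not tested further. With glmTreat, which tests against the fold threshold itself, the calls were the same 2 genes of the 10, with 232 among all genes against 2032. One fit of all 15 libraries called 4, without *Tnc* (adjusted p = 0.0812) and *Ccn1* (0.0503).

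The genes with the largest falls on the log2 scale were *Fn1*, *Thbs2* and *Tnc*. *Fn1* stood at 85, 139 and 122 CPM in the LepK libraries, each below the lowest IgGK library at 261, and fell by 1.25 on the log2 scale (SE 0.14, adjusted p = 0.000183). *Thbs2* stood at 14.1, 20.1 and 23.7, against 39.5 and more in IgGK, and fell by 1.15 (SE 0.16, adjusted p = 0.000729). *Tnc* stood at 29.5, 48.6 and 46, against 85.6 and more, and fell by 1.11 (SE 0.2, adjusted p = 0.00242). Each of these and *Sparc* was called in all 9 fits that left out 1 library.

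*Sparc* fell by 0.91 (SE 0.14, adjusted p = 0.00118) to 205, 307 and 281 CPM. *Postn* fell by 1.07 (SE 0.26, adjusted p = 0.0124) to 11.8, 10.5 and 7.46, and was not called without LepK replicate 3 (adjusted p = 0.0507). *Ccn1* stood at 19.6, 34.3 and 32 and fell by 0.59 (SE 0.19, adjusted p = 0.044). This call was the weakest of the 6, since it was kept in 2 of the 9 fits that left out a library, with adjusted p-values of up to 0.14.

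The other 4 genes were not called. *Thbs1* stood at 84.9, 109 and 91 CPM, below all IgGK libraries, and its log2 fold change of -0.33 (SE 0.09, adjusted p = 0.02) was under the fold threshold. *Ccn4* stood at 3.13, 4.83 and 8.79, so that LepK replicate 3 exceeded IgGK replicate 1. Its log2 fold change of -0.84 (SE 0.34, adjusted p = 0.108) was called without LepK replicate 3 (-1.32, adjusted p = 0.0181) and by DESeq2 (-0.83, adjusted p = 0.0497). *Ccn2* (43.2, 49.4 and 54.2) had a log2 fold change of -0.04 with an interval of -0.35 to 0.26, and *Tnxb* (36, 33.7 and 31.1) of 0.17 with an interval of -0.13 to 0.47. Neither gene had been called in IgGK against WTK, which shares the IgGK libraries with this comparison.

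LepK replicate 1 was the lowest LepK library in 8 of the 10 genes and IgGK replicate 2 the highest IgGK library in 9. Other groups were more divided. Replicates 1, 2 and 3 were the highest library in 2, 2 and 6 genes in WTK and in 1, 4 and 5 in IgGL. The share of all genes with such an order was not counted. The markers of several cell types also changed between the kidney groups. The summed level of 12 macrophage markers was 205 to 237 CPM in WTK, 1870 to 2390 in IgGK and 659 to 992 in LepK, with 12 of 12 up in IgGK and 11 of 12 down in LepK. LepK replicate 1 was lowest here too, at 659. That of 12 fibroblast and myofibroblast markers was 169 to 208, 448 to 483 and 279 to 355, with 8 up and 6 down, and that of 8 kidney epithelial markers was 15900 to 16600, 5780 to 7000 and 9470 to 10900. The summed level of 8 injured tubule markers was 194 to 211 in WTK, 873 to 930 in IgGK and 477 to 623 in LepK, with 7 up and 6 down, and LepK replicate 1 was again the lowest of its group. Without IgGK replicates 1 and 2, the median macrophage marker log2 fold change in LepK against IgGK was -1.08 (-1.25 with all libraries). It was -0.53 (-0.56) for fibroblast and myofibroblast, -0.75 (-0.86) for injured tubule and 0.42 (0.51) for kidney epithelial markers. None of these lists had a marker at 0 throughout a group in kidney, and their part in the result was not tested.

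Most of the genes stayed higher in LepK than in WTK. The 7 genes called higher in LepK than in WTK were *Fn1*, *Tnc*, *Thbs2*, *Sparc*, *Postn*, *Ccn1* and *Thbs1*, where 22.5% of genes were called, 15.2% up and 7.3% down. The groups did not overlap in 5 of them, all but *Postn* and *Ccn1*, which was so in the upward direction for 25.6% of genes. *Fn1* was still 4.62-fold higher (log2 fold change 2.21, SE 0.15, adjusted p = 1.2e-06), *Tnc* 3.87-fold (1.95, SE 0.22, adjusted p = 3.51e-05) and *Thbs2* 3.58-fold (1.84, SE 0.18, adjusted p = 1.66e-05). *Sparc* was 2.17-fold higher (adjusted p = 9.51e-05) and *Thbs1* 1.43-fold (adjusted p = 0.000688). *Postn* (log2 fold change 0.74, adjusted p = 0.0497) and *Ccn1* (0.61, adjusted p = 0.0267) passed narrowly, in 2 and 6 of 9 fits with a library left out. *Ccn4* did not pass (0.94, adjusted p = 0.0572), and *Thbs1* was lost without LepK replicate 2. Without IgGK replicates 1 and 2, which are in neither group compared here, the median log2 fold change of the 10 was 0.85, against 0.84 with all libraries. *Postn* was then at 0.75.

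The share of the IgGK minus WTK difference in mean CPM that was gone in LepK was between 45.9% and 73.4% in the 8 genes that rose, with a median of 61.9%, and of 61.7% without IgGK replicates 1 and 2. It was 63.7% ± 11.1 in *Fn1*, 60.9% ± 13.2 in *Tnc*, 62.9% ± 13 in *Thbs2* and 61.9% ± 14.1 in *Sparc* (SD over the 3 LepK libraries). The lowest was *Thbs1* at 45.9% ± 24.2 and the highest *Postn* at 73.4% ± 14.9, and their LepK libraries overlapped (18.8% to 65.3% and 60.7% to 89.8%). In *Ccn4* (61.9% ± 41.2) and *Ccn1* (59.5% ± 32.5) single LepK libraries ranged from 16.4% to 96.8% and from 36.2% to 96.6%. The IgGK libraries enter both differences, so this share is a description and was not tested.

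**Figure D2:**
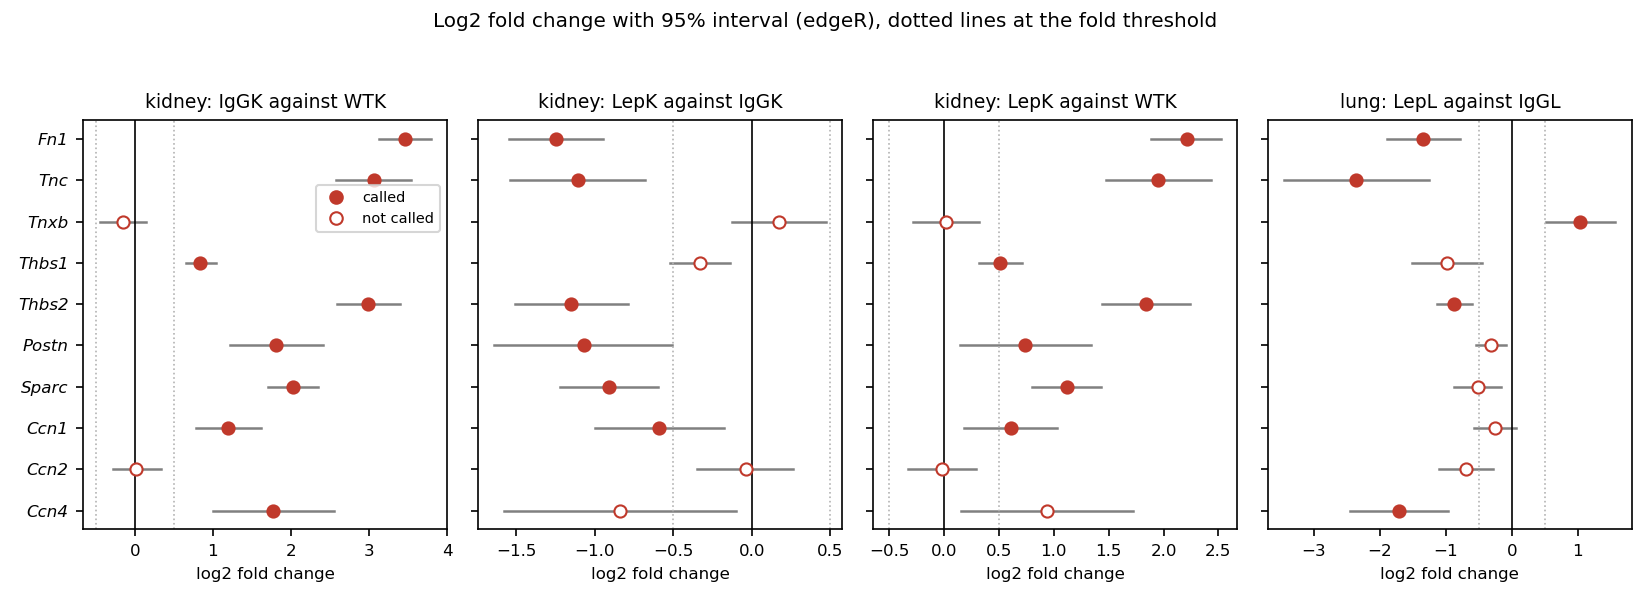
Log2 fold change (x axis) of each gene in 4 comparisons, with 95% intervals from edgeR, filled where called. *Fn1*, *Tnc* and *Thbs2* lie farthest right in IgGK against WTK and near -1.25, -1.11 and -1.15 in LepK against IgGK, while *Ccn2* and *Tnxb* lie at 0.02 and -0.15 in the first panel.

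In bleomycin lung, 9 of the 10 genes were lower in every LepL library than in every IgGL library, and *Tnxb* was higher in every one. Such a lack of overlap was seen in 33.3% of all genes, 17.3% downward and 16% upward. After adjustment 4 genes fell (*Fn1*, *Tnc*, *Thbs2* and *Ccn4*) and *Tnxb* rose, where 4.14% of genes were called, 2.36% down and 1.78% up. The median log2 fold change of the 10 was -0.78, against 0 over all genes. These 5 calls were kept without IgGL replicate 1, with 7 of the 10 and 3539 of all genes called against 812 with all libraries, and lost without any other single library, when edgeR called 0 of the 10 and 0 to 22 of all genes, with 3401 to 4717 genes at an unadjusted p under 0.05. With all libraries, glmTreat called 0 of the 10 and 0 of all genes, with 1901 at an unadjusted p under 0.05, and the replicate number as a block left 0 of the 10 and 4 of all genes, with 4815 at an unadjusted p under 0.05. DESeq2 called 8 of the 10, adding *Thbs1*, *Sparc* and *Ccn2*, and 2294 of all genes.

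*Tnc* had the lowest log2 fold change of the 10, and its IgGL libraries were far apart. They stood at 312, 684 and 1440 CPM, against 207, 154 and 115 in LepL. The log2 fold change was -2.36 (SE 0.48, adjusted p = 0.0391), and only 0.331% of genes lay as low. Without IgGL replicate 3 it was -1.65 (adjusted p = 0.0567).

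*Ccn4* followed the same order within IgGL, with 44.9, 84.1 and 124 CPM, and was at 29.9, 28 and 19.4 in LepL (log2 fold change -1.71, SE 0.33, adjusted p = 0.0363). *Fn1* stood at 3780, 5210 and 5010 in IgGL and at 2170, 2150 and 1220 in LepL (-1.34, SE 0.24, adjusted p = 0.0337). *Thbs2* was the least variable of the genes called, with 34.7, 35.9 and 34.6 in IgGL and 21.3, 19.3 and 17 in LepL (-0.87, SE 0.12, adjusted p = 0.0327). Among these 3 genes *Fn1* had by far the higher level, and LepL replicate 3 was the lowest LepL library in each.

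Of the genes not called, *Thbs1* came nearest. It stood at 1120, 1970 and 2110 CPM in IgGL and at 1030, 807 and 798 in LepL (log2 fold change -0.98, SE 0.24, adjusted p = 0.0516). *Ccn2*, which was not called in kidney, stood at 551, 648 and 647 in IgGL and at 405, 456 and 276 in LepL (-0.7, SE 0.18, adjusted p = 0.0611). *Sparc* stood at 4140, 4500 and 3980 and at 3170, 3160 and 2440 (-0.52, SE 0.16, adjusted p = 0.0809), and *Postn* at 342, 323 and 346 and at 256, 288 and 266 (-0.32, SE 0.1, adjusted p = 0.0926). In *Ccn1* the gap was narrow, with 372 as the lowest IgGL and 368 as the highest LepL library (-0.25, interval -0.57 to 0.07, adjusted p = 0.286).

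*Tnxb* was the only one of the 10 with a higher level in LepL. It stood at 68.8, 57.1 and 42.2 CPM in IgGL and at 82, 116 and 149 in LepL. The log2 fold change was thus 1.04 (SE 0.23, adjusted p = 0.0444). The summed level of 8 lung epithelial markers put the 6 libraries in the same order, at 22300, 16800 and 16500 CPM in IgGL and 30400, 39700 and 47500 in LepL, with 2 of the 8 called up. That of 8 skeletal muscle markers was 1030, 705 and 300 in IgGL and 983, 1830 and 2350 in LepL, against 2.53 to 3.63 in kidney. None of the 8 muscle markers was at 0 throughout a lung group, edgeR called 0 of them, and *Myh2* had the lower mean in LepL (16.3 and 8.23 CPM). At an unadjusted p under 0.05 there were 5 of the 8, and DESeq2 called 2, both up. The part of these markers in the *Tnxb* result was not tested. The fibroblast and myofibroblast markers summed to 1470 to 1530 CPM in IgGL and to 1010 to 1120 in LepL, with 3 of 12 called down. The macrophage sum was 4240 to 7060 and 8280 to 8570, of which *Lyz2* alone made up a mean of 3640 and 7170, although 4 of the 12 macrophage markers were called down. Their part in the lung results was not tested either.

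**Figure D3:**
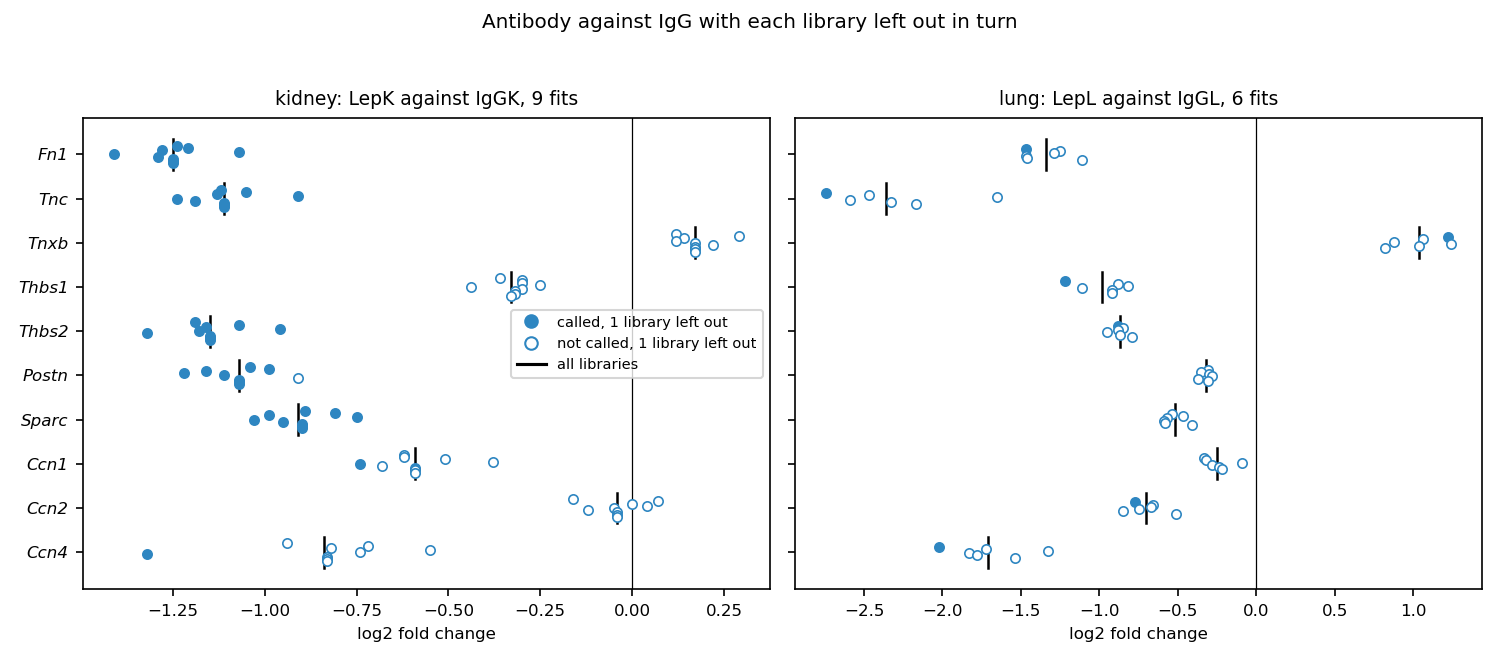
Log2 fold change (x axis) of LepAb against IgG for each gene when 1 library is left out, 1 point per fit, filled where called, with a bar at the value with all libraries. In kidney *Fn1*, *Tnc*, *Thbs2* and *Sparc* are called in 9 of 9 fits, and in lung the filled points come from a single fit, without IgGL replicate 1.

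The antibody effects in the 2 organs were compared in 1 fit of the 12 injured libraries. Organ, agent, day, injury and the length of the antibody course differ together there. *Postn* was the 1 gene of the 10 called in this contrast, with a kidney minus lung difference of -0.72 (SE 0.2, adjusted p = 0.0449), where 7.12% of genes were called, 3.51% upward and 3.62% downward. It fell by 1.07 in kidney and its log2 fold change in lung was -0.32. The call was kept in 2 of 12 fits that left out a library, and without IgGK replicates 1 and 2 the difference was -0.52 (adjusted p = 0.372). In *Fn1* the difference was 0.12 with an interval of -0.54 to 0.78 (adjusted p = 0.86), which leaves room for unequal effects. *Tnxb* (-0.84, adjusted p = 0.087), *Ccn2* (0.69, adjusted p = 0.098), *Thbs1* (0.69, adjusted p = 0.139) and *Tnc* (1.28, adjusted p = 0.174) had differences of a similar or larger size that did not pass.

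**Figure D4:**
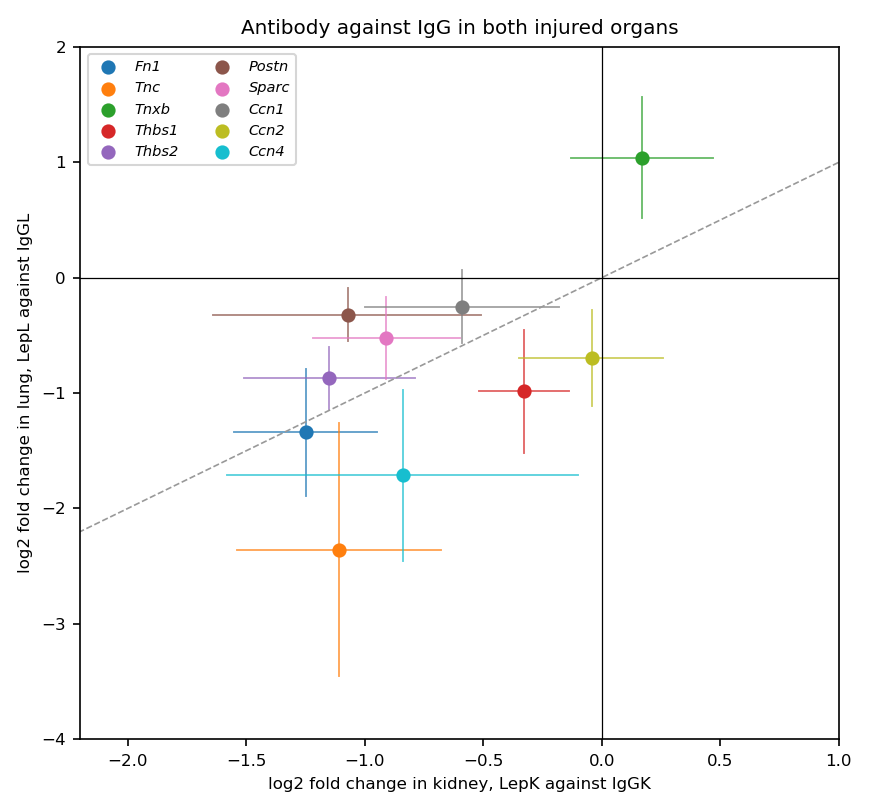
Log2 fold change of LepAb against IgG in kidney (x axis) and lung (y axis) for the 10 genes, with 95% intervals and a dashed line where both are equal. *Fn1* lies near the line at -1.25 and -1.34, *Postn* lies above it at -1.07 and -0.32, and *Ccn2* lies at -0.04 and -0.7.

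Levels per length were compared within a group with the deposited FPKM values. These values carry a factor per library, of 0.966 to 0.981 in WTK and 0.686 to 0.713 in IgGK, so places in the order are compared between groups and FPKM values are not. *Sparc* was the highest of the 10 in every group and did not overlap with the next gene. Its FPKM (mean ± SD over 3 libraries) was 26.6 ± 3.35 in WTK, where *Ccn2* came next at 14.3 ± 2.56. It was 105 ± 14.2 in IgGK, with *Fn1* next at 18.9 ± 0.971, and 57.2 ± 11.3 in LepK, with *Ccn2* next at 14 ± 1.54. In lung it was 761 ± 51.3 in IgGL and 541 ± 76.6 in LepL. Between WTK and IgGK, *Fn1* and *Tnxb* each moved by 4 places, *Fn1* up and *Tnxb* down from rank 5 to rank 9. In WTK *Fn1* was at rank 6 with 1.77 FPKM and overlapped with *Tnxb* above it, in IgGK at rank 2 with 18.9, overlapping with *Ccn1* at 17.2, and in LepK at rank 5 with 8.09. In lung it was at rank 2 in IgGL with 273 and at rank 3 in LepL with 111, overlapping with *Thbs1* in both groups. *Ccn2* was at rank 2 in WTK with 14.3 and in LepK with 14, but at rank 5 in IgGK with 14.2, where *Fn1*, *Ccn1* and *Thbs1* stood above it. *Ccn2* overlapped with *Thbs1* in both IgGK and LepK, and *Fn1* overlapped with *Ccn1* above it in LepK, so these neighbours were not separated.

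At the lower end, *Ccn4* was last in all 3 kidney groups, at 0.431, 1.44 and 0.821 FPKM, each time overlapping with the next gene above. In lung, *Tnxb* was last in IgGL at 2.85, overlapping with *Thbs2* at 3.43, and *Thbs2* was last in LepL at 1.92, apart from *Ccn4* at 3.24. The *Tnc* to *Tnxb* ratio of FPKM ranged from 7.86 to 59.3 over the IgGL libraries and from 1.35 to 4.38 over the LepL libraries. The *Thbs2* to *Thbs1* ratio overlapped between IgGL (0.0142 to 0.0268) and LepL (0.0179 to 0.0207), unlike in kidney.

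**Figure D5:**
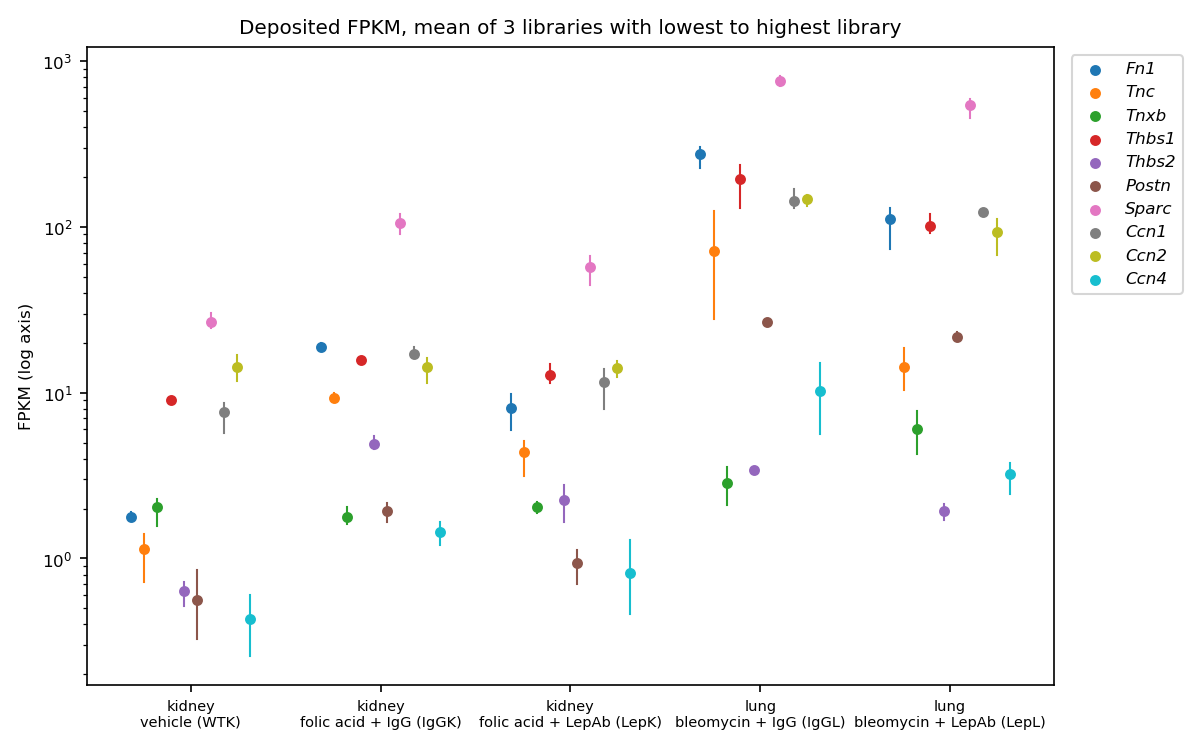
Deposited FPKM (log axis) of the 10 genes in the 5 groups, as means of 3 libraries with a line from the lowest to the highest library, to be read within a group. *Sparc* is on top in each group, and *Fn1* is at rank 6 in WTK, 2 in IgGK and 5 in LepK.

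Genes that work with these proteins were examined as lists. For each list, 37.3% of all genes tested were called in IgGK against WTK (21.7% up, 15.6% down), 10.4% in LepK against IgGK (4.38% up, 5.99% down) and 4.14% in LepL against IgGL (1.78% up, 2.36% down), with medians over all genes of 0.04, -0.01 and 0. Of 16 matrix partner and assembly genes, 14 rose in IgGK against WTK (median log2 fold change 2.38), 10 fell in LepK against IgGK (median -0.98) and 8 fell in LepL against IgGL (median -0.86). The latent TGF-beta binding protein *Ltbp2* rose by a log2 fold change of 5.51 (SE 0.4, adjusted p = 2.78e-07) and *Col3a1* by 3.91 (SE 0.21, adjusted p = 4.12e-08). With LepAb, *Col12a1* fell by 1.84 on the log2 scale (SE 0.17, adjusted p = 6.93e-05) and *Col3a1* by 1.52 (SE 0.19, adjusted p = 0.000359) in kidney. In lung, the collagen-crosslinking enzyme gene *Lox* fell by 1.61 on the log2 scale (SE 0.3, adjusted p = 0.035) and *Col5a1* by 1.56 (SE 0.22, adjusted p = 0.0327).

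Of 18 receptor genes for fibronectin and matricellular proteins, 11 rose and 2 fell in IgGK against WTK, 7 fell in LepK against IgGK and 4 fell in LepL against IgGL, with median log2 fold changes of 0.86, -0.41 and -0.3. *Cd44*, a hyaluronan receptor, rose by 4.44 on the log2 scale (SE 0.23, adjusted p = 3.66e-08) and the integrin gene *Itgb3* by 2.11 (SE 0.22, adjusted p = 5.15e-06). The thrombospondin receptor gene *Cd36* fell by 1.32 (SE 0.16, adjusted p = 1.83e-05), as did *Itgb8* by 0.56 (SE 0.1, adjusted p = 0.000402). With LepAb, *Itgb3* fell by 1.19 and *Itga4* by 0.91 on that scale in kidney (adjusted p = 0.00217 and 0.00183). In lung the fibronectin receptor subunit gene *Itga5* fell by 1.71 (SE 0.35, adjusted p = 0.0395) and the endocytic receptor gene *Lrp1* by 1.02 (SE 0.17, adjusted p = 0.0327).

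Of the other matricellular genes, 13 could be tested in kidney, where 7 rose and 1 fell with folic acid and 5 fell with LepAb, with median log2 fold changes of 1.05 and -0.53. *Smoc2* rose by 2.7 on the log2 scale (SE 0.22, adjusted p = 6.13e-07) and fell by 1.17 with LepAb (SE 0.2, adjusted p = 0.00189), and *Tgfbi* rose by 2.17 (SE 0.11, adjusted p = 4.03e-08). *Smoc1* fell by 0.8 with folic acid (SE 0.28, adjusted p = 0.0293), and *Thbs4* by 1.16 with LepAb (SE 0.32, adjusted p = 0.0231). Of 14 tested in lung (median -0.2), 4 fell, among them *Smoc2* by 1.52 (adjusted p = 0.0495) and *Tgfbi* by 1.35 (adjusted p = 0.0394), and *Thbs3* rose by 0.99 (SE 0.18, adjusted p = 0.0342).

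Among 12 TGF-beta response genes, 8 rose with folic acid, 4 fell with LepAb in kidney and 3 fell with LepAb in lung, with median log2 fold changes of 0.92, -0.4 and -0.34. *Junb* rose by 1.71 on the log2 scale with folic acid (adjusted p = 5.93e-08), *Tgfb1* fell by 0.66 with LepAb in kidney (adjusted p = 0.00456) and *Pmepa1* by 0.89 in lung (adjusted p = 0.0327).

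The YAP and TAZ targets other than the CCN genes were mixed, with median log2 fold changes of 0.57 with folic acid and, with LepAb, of -0.24 in kidney and -0.22 in lung. Of 19 tested in kidney, 10 rose and 2 fell with folic acid, among them *Ankrd1* (log2 fold change 3.18, SE 0.28, adjusted p = 1.12e-06) and *Ccdc80* (2.88, SE 0.22, adjusted p = 3.62e-07) up and *Igfbp3* (-2.04, SE 0.17, adjusted p = 8.11e-07) and *Nuak2* (-1.29, SE 0.1, adjusted p = 5.39e-07) down. With LepAb, 3 fell, including *Ccdc80* by 1.26 on the log2 scale (adjusted p = 0.0011) and *Myof* by 0.76 (adjusted p = 0.000388), and *Igfbp3* and *Nuak2* rose by 0.61 and 0.52 (adjusted p = 0.0213 and 0.00382). In lung, edgeR called 0 of 20, with 11 at an unadjusted p under 0.05, and DESeq2 called 4, all down.

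The lists were also counted without IgGK replicates 1 and 2, a choice made after seeing the data. In LepK against IgGK the median log2 fold change of the matrix partner genes was then -0.89 (-0.98 with all libraries). It was -0.37 (-0.41) for receptor genes and -0.44 (-0.53) for other matricellular genes. For TGF-beta response genes it was -0.35 (-0.4), and for YAP and TAZ targets -0.26 (-0.24). The counts were close to those with all libraries in IgGK against WTK and mostly lower in LepK against IgGK, where 3.13% of all genes were then called (2.02% up, 1.11% down). In IgGK against WTK, 13 of 16 matrix partner genes rose, 11 of 18 receptor genes rose and 1 fell, and 6 of 13 other matricellular genes rose and 1 fell. The TGF-beta response genes had 8 of 12 up, and the YAP and TAZ targets had 10 of 19 up and 2 down. *Itgb8* was at -0.48, under the fold threshold. In LepK against IgGK, 6 of 16 matrix partner genes fell, *Col12a1* (-1.71, adjusted p = 0.00649) and *Col3a1* (-1.46, adjusted p = 0.015) among them, and 3 of 19 YAP and TAZ targets fell. Of the receptor genes 1 fell, of the other matricellular genes 2, and edgeR called 0 of the 12 TGF-beta response genes, with 7 at an unadjusted p under 0.05. *Itgb3* (-1.12, adjusted p = 0.0561), *Itga4* (-0.81, 0.068), *Smoc2* (-1.06, 0.0604), *Thbs4* (-1.06, 0.22), *Tgfb1* (-0.48, 0.0923), *Igfbp3* (0.6, 0.241) and *Nuak2* (0.42, 0.138) were not called in that fit.

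By likeness of profile over the 15 libraries, measured as the root mean square distance of log2 CPM centred within each organ, *Fn1* lay nearest to *Col1a1* (0.2), *Col1a2* (0.2) and *Lox* (0.22), where the median distance over 15525 genes was 1.2. *Tnc* lay nearest to *Timp1* (0.21), *Adam12* (0.3) and *Ccl2* (0.35). The nearest to *Ccn4* were *Itga5*, *Zfp469* and *Ccr1* (0.24 each), and to *Thbs2* the macrophage-expressed *Clec4a1* (0.15), *Adgre1* (0.16) and *Tyrobp* (0.16). *Sparc* lay nearest to *Lair1* (0.087), *Lilrb4a* (0.1) and *Axl* (0.1), and *Postn* to *Mmd* (0.21), *Tlr4* (0.21) and *Cd86* (0.22). *Thbs1* lay nearest to *1700017B05Rik* (0.096), *Tnfrsf12a* (0.12) and *Septin9* (0.13). The median distance differed by gene, with 1.2 for *Tnc*, 0.89 for *Thbs2*, 0.77 for *Ccn4*, 0.7 for *Sparc*, 0.59 for *Postn* and 0.49 for *Thbs1*.

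For *Ccn1* the nearest genes were *Cd93* (0.13), *Cenpa* (0.13) and *Mcm3* (0.15), for *Ccn2* *Micall1* (0.15), *Fas* (0.17) and *Dcst2* (0.17), and for *Tnxb* *Shisa2* (0.13), *Tbc1d30* (0.16) and *Asb16* (0.16). The median distance over all genes was 0.46 for *Ccn1*, 0.38 for *Ccn2* and 0.46 for *Tnxb*. Ranking by Pearson's r over the 9 kidney libraries, which changed both the measure and the libraries, gave 0 of 3 shared neighbours for each of the 10 genes.

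Reads from overlapping genes cannot be told apart by strand in these libraries. *Tnc* overlaps the antisense gene *8030451A03Rik* over 67162 bases, with at most 125 counts of it in a library, and *Ccn2* overlaps *Gm15270* over 1667 bases, with at most 45. *Fn1* overlaps *Apol7d* over 364 bases (at most 6 counts) and *Thbs1* overlaps *Gm29233* (at most 2). *Tnxb* shares 3 bases with the pseudogene *Cyp21a2-ps*, which reached 396 counts in a kidney library, and contains *Gm24389* (at most 1).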

How the data were processed

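RNA was sequenced by poly(A) selection without strand information in 15 libraries, 3 per group, and each library was taken as 1 mouse. Groups were taken from titles, tissue and treatment. A column name of another table, given in the sample descriptions, disagrees with these in most samples and was not used. The labels do not name the animals, so p-values measure the spread between these libraries. The authors deposited 1 table with read counts per gene, not normalized, and FPKM values, which they scaled per gene length and per library. Gene lengths and positions were used as deposited. The processing notes in the labels name GRCm39 and DESeq2. The aligner and the counting tool are not given in the sources used here. The authors' own fold changes and p-values were not used.

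Total counts were 25913969 to 38924788, and 1 count equals 0.0257 to 0.0386 raw CPM. Genes were filtered with filterByExpr (minimum count 10, minimum total 15), scaled by TMM and fitted with glmQLFit and glmQLFTest (edgeR 4.0.16, R 4.3.3) in the 9 kidney and the 6 lung libraries apart, and in 12 libraries for the kidney minus lung difference, which was called at an adjusted p under 0.05. Standard errors are the log2 fold change over the square root of F. The deposited FPKM values carry a factor of 0.686 to 0.981 per library relative to counts over length and total, so genes were compared within a group or as ratios within a library, and FPKM values were not compared between groups.

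Genes are named if they are among the 10, overlap one of them, are among the 3 nearest in profile (mean of at least 1 CPM), or are the 2 called genes that rose or fell most in a list. The genes and lists were chosen with earlier results of these data known. Alternatives used DESeq2 1.42.0, other scalings, filters, thresholds and fits, a replicate block and leaving out libraries. The edgeR steps were tested on simulated data. Results for some listed genes are not reported here.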

Additional observations from a re-analysis of the deposited data

Results flagged for a closer look

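In a test of the difference itself, the LepAb against IgG effect on *Postn* (periostin) was called as different between the organs. It was the 1 call among the 10 genes, where 7.12% of all genes tested were called. The edgeR call was lost with the replicate block (adjusted p = 0.0519) and in 1 fit of all 15 libraries (adjusted p = 0.113). The kidney minus lung difference was -0.72 on the log2 scale (SE 0.2, interval -1.15 to -0.3, adjusted p = 0.0449, edgeR fit of 12 libraries). The effect in kidney was -1.07 (SE 0.26), with 21.5, 23.2 and 18.1 CPM in IgGK and 11.8, 10.5 and 7.46 in LepK. The effect in lung was -0.32 (SE 0.1), with 342, 323 and 346 CPM in IgGL and 256, 288 and 266 in LepL. All 3 antibody libraries lay below all 3 IgG libraries in both organs. The call was kept in 2 of 12 fits that left out a library, without LepK replicate 1 and without IgGL replicate 1, and the differences over these fits ranged from -0.91 to -0.55. Without IgGK replicates 1 and 2, the libraries with adrenal cortex markers, the difference was -0.52 (adjusted p = 0.372). Organ, injury, age, day and the length of the antibody course cannot be told apart in this contrast.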

How the results depend on the processing

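In IgGK against WTK, 8 genes rose under every alternative run but an absolute log2 fold change over 1. That threshold left 7, all but *Thbs1*, with 4297 of all genes called against 7310. In LepK against IgGK, 6 genes fell and 2032 of all genes were called. There glmTreat called 2, while a fold threshold of 1 and 1 fit of all 15 libraries each called 4, the latter without *Tnc* and *Ccn1*. Among all genes they called 232, 603 and 1690. In the fit without IgGK replicates 1 and 2, chosen after seeing the data, the log2 fold changes of the 6 ranged from -1.17 to -0.69. In LepK against WTK, 7 genes and 4415 of all genes were called. There glmTreat and a fold threshold of 1 each called 4, with 2098 and 2141 of all genes. *Ccn4*, not called in LepK against IgGK, was called there with DESeq2, the replicate block and no filter. In LepL against IgGL, where 5 were called, glmTreat called 0 and the replicate block 0, while no filter on low counts, DESeq2 and 1 fit of all 15 libraries each called 8, with 2688, 2294 and 2293 of all genes called against 812. The kidney minus lung difference had 1 call, with 1531 of all genes called. A fold threshold of 1, the replicate block and 1 fit of all 15 libraries gave 0, with 684, 1006 and 2106 of all genes. Without IgGK replicates 1 and 2 the *Postn* difference was -0.52. Library size alone gave 2, no filter 6 and DESeq2 3, with 2217, 2659 and 2772 of all genes, so the calls rose among all genes too. The cause was not tested.

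Leaving out 1 library at a time gave 8 to 8 calls in IgGK against WTK, 5 to 6 in LepK against IgGK, 4 to 7 in LepK against WTK, 0 to 7 in LepL against IgGL and 0 to 4 in the kidney minus lung difference. Among all genes these fits called 6591 to 7452, 1303 to 2260, 3647 to 4951, 0 to 3539 and 352 to 3763, in the same order. The median share of the injury difference gone in LepK ranged from 53.7% to 66.5%.

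In LepK against IgGK, same-numbered libraries had correlated deviations for replicates 1 and 2 (0.3 and 0.27) but not for replicate 3 (-0.055), and in the other comparisons the correlations were -0.15 to 0.17. In no comparison did every library correlate best with its own number, so the numbers were not taken as pairs. With the replicate number as a block 8 genes were called with folic acid, 7 in LepK against IgGK, 7 in LepK against WTK, 0 in LepL against IgGL and 0 in the kidney minus lung difference. Among all genes the block fits called 7235, 2119, 4400, 4 and 1006, in the same order.

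Directions turned only in genes that were not called. With library size alone, *Tnxb* was at 0.29 with folic acid and at -0.01 with LepAb in kidney, *Ccn2* was at 0.24 in LepK against WTK (0.02 with upper-quartile scaling) and the *Fn1* difference between organs at -0.12. That scaling moved the median over all genes to 0.48 in IgGK against WTK, -0.19 in LepK against IgGK and 0.29 in LepK against WTK, and gave 7803 higher and 1178 lower calls in the first, against 4253 and 3057 with TMM, and 408 and 2185 in LepK against IgGK, against 858 and 1174. With a library left out, *Ccn2* ranged from -0.1 to 0.15 in IgGK against WTK (turned at -0.1, -0.08 and -0.01), from -0.14 to 0.11 in LepK against WTK and from -0.16 to 0.07 in LepK against IgGK. *Tnxb* ranged from -0.14 to 0.11 in LepK against WTK, and the *Fn1* difference between organs from -0.1 to 0.26. With 3 libraries per group, differences inside the intervals given cannot be seen.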
